A study of Mus musculus with 9 samples.

Results

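The 10 genes of the Polycomb and DNA methylation machinery described here were followed in mouse retinas that lack Rb, or Rb and p107: Ezh1, Ezh2, Eed, Suz12, Dnmt1, Dnmt3a, Uhrf1, Hells, Tet1 and Tet3. The members were taken by their symbols in the array annotation. All of them were found among the 24202 genes tested, each through a single probe set. Whole retinas were taken at postnatal day 8 (P8) from Rb/p107 DKO mice (called DKO here), which carry knockouts of both genes, from Rb KO mice and from WT mice, with 3 arrays per group and 9 in all. All mice were on a C57Bl/6x129SvJ background, the tissue was snap frozen, and the design text counts each array as a biological replicate. The labels give no Cre line or promoter for the knockouts and do not say whether retinas were pooled, so the share of cells that lost Rb or p107 is not known from them. RNA was read on an Affymetrix whole-transcript array, and the deposited values are log2 intensities, on which a difference of 1 is a doubling.

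Polycomb repressive complex 2 (PRC2) methylates lysine 27 of histone H3. EZH1 and EZH2 are its alternative catalytic subunits, and EED and SUZ12 are the core subunits without which neither works. DNMT1 copies CpG methylation to the new strand after replication, UHRF1 brings it to the hemimethylated sites, and the helicase HELLS opens chromatin for the same process. DNMT3A sets methylation anew, also in neurons, while TET1 and TET3 oxidise methylcytosine and so start its removal. EZH2, DNMT1, UHRF1 and HELLS are most abundant in dividing cells, and EZH1 in cells that have left the cycle. The pocket proteins RB and p107 restrain E2F factors, which drive genes of S phase, and loss of RB is the founding lesion of human retinoblastoma.

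The promoter sequences were examined for letters that E2F factors are known to favour, since several of the members that rose serve S phase. Windows of 250 bases before and 50 bases from each annotated start were taken from RefSeq (GRCm38.p6), and all 10 members had at least 1 window, 15 in all. They were searched on both strands for TTTCCCGC, TTTGGCGC, TTTCGCGC and TTTGCCGC, which cannot overlap on 1 strand but can share their closing letters with a match on the opposite strand. Of all 32851 windows in the table, 744 (2.26%) held such a match. Among the members' windows 5 of 15 (33.33%) held one, 1 window each of Ezh2, Dnmt1, Uhrf1, Hells and Suz12, where Dnmt1 and Dnmt3a have 3 windows each, some overlapping, and Uhrf1 has 2. The matching stretches are shown because they lie at the 4 members that rose in both mutants, and at Suz12, which did not pass the test. They are written in the direction of the gene with the match in capitals, and a position counts from the start, negative before it:
Ezh2, chr6:47595009-47595038, minus strand, from -8 to 22: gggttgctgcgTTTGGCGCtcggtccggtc
Dnmt1, the third start, chr9:20952815-20952862, minus strand, from -239 to -192: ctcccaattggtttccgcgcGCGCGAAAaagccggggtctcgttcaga
Dnmt1, the third start, chr9:20952574-20952601, minus strand, from 23 to 50: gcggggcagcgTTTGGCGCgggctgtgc
Uhrf1, the second start, chr17:56304108-56304155, plus strand, from -205 to -158: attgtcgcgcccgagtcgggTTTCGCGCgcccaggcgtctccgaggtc
Hells, chr19:38930908-38930955, plus strand, from -82 to -35: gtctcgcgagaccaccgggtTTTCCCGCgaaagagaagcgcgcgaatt
Suz12, chr11:79992867-79992914, plus strand, from -239 to -192: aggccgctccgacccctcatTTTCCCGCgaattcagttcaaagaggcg

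The upstream Dnmt1 match lies on the strand opposite to the gene, and the other 5 matches on its own strand. The windows of Ezh1, Eed, Dnmt3a, Tet1 and Tet3 held none of these letters, which says nothing of sites elsewhere. The shorter letters TTTGAA, known from the cell cycle homology region (CHR) of mitotic genes, stood in a window of Eed, Suz12 and Dnmt1, and in 17.89% of all windows. A match is a run of letters and does not show binding. The windows of the members were rich in CpG, with a median of 23 per window against 7 in all windows, and every member had a window with at least 17.

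Across all genes tested that had a window, the share with an E2F-type match was highest among genes that rose. In DKO against WT it was 15.9% of the 383 genes called higher by at least 1 on the log2 scale, 8.92% of the 1940 called higher, 2.2% of the 2676 called lower and 2.35% of the 9752 not called. In Rb KO against WT the same shares were 16.8% of 310, 9.42% of 1699, 2.34% of 2133 and 2.38% of 10536 genes. Within genes that had a window with at least 17 CpG, 10.7% of those called higher in DKO held a match, against 4.55% of those not called, and in Rb KO 11.1% against 4.39%. Of those called lower, 2.91% in DKO and 3.23% in Rb KO held one. This floor does not match the classes in CpG content, and the genes called higher include the members that rose. These shares are a description without a test, and both comparisons share the WT arrays.

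**Figure D1:**
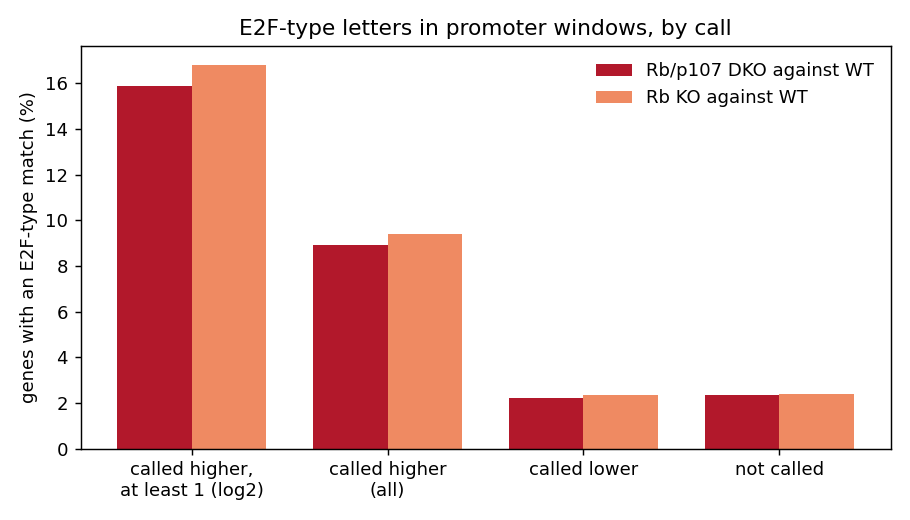
Percent of genes (vertical axis) with an E2F-type match in a promoter window, by call in DKO against WT (dark bars) and Rb KO against WT (light bars). The bars of genes called higher by at least 1 reach 15.9% and 16.8%, and those of genes called lower or not called lie between 2.2% and 2.38%.

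The arrays were compared by limma over all genes, with calls at a Benjamini-Hochberg adjusted p under 0.05, and every adjusted p below is of that kind. A reading is called above background where it exceeded the 95th percentile of that array's negative controls, which was 8.29 to 8.43 in DKO, 8.32 to 8.5 in Rb KO and 7.94 to 8.34 in WT. Arrays of 1 group correlated at 0.992 to 0.998. Rb1, the targeted gene, read 9.74, 10 and 9.85 in DKO, 9.85, 10.02 and 9.86 in Rb KO, and 10, 10.19 and 10.46 in WT at its brightest probe set, a log2 fold change of -0.36 in DKO (SE 0.117, adjusted p = 0.0422) and -0.31 in Rb KO (SE 0.117, adjusted p = 0.0792). Averaging its 3 probe sets, of which the other 2 were not above background on any array, turned these to 0.74 in DKO and 0.68 in Rb KO (adjusted p = 0.00466 and 0.0096), so these probe sets do not settle the check of the knockout. Rbl1, the p107 gene, was not analysed here.

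The members moved in both directions in both mutants. In DKO against WT 4 of the 10 rose and 3 fell, where 29.4% of all genes were called (49.1% of the 7838 genes above background in at least 3 arrays, as all 10 members were). In Rb KO against WT 4 rose and 2 fell, where 24.4% of all genes were called (42.8% of those 7838). A gene could pass that filter of 3 arrays through 1 group alone, and Hells and Uhrf1 passed it through mutant arrays only. The shares among those 7838 genes are therefore not independent of the calls. The rises were Ezh2, Dnmt1, Uhrf1 and Hells in each mutant, and the falls were Ezh1 and Dnmt3a in each, with Tet3 in DKO. The median log2 fold change of the members was 0.18 in DKO and 0.15 in Rb KO, against -0.06 in DKO and -0.05 in Rb KO over all genes. Between the mutants 1 of 10 was called, the fall of Tet3 in DKO against Rb KO, where 2.54% of all genes were called (4.68% of those 7838).

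**Figure D2:**
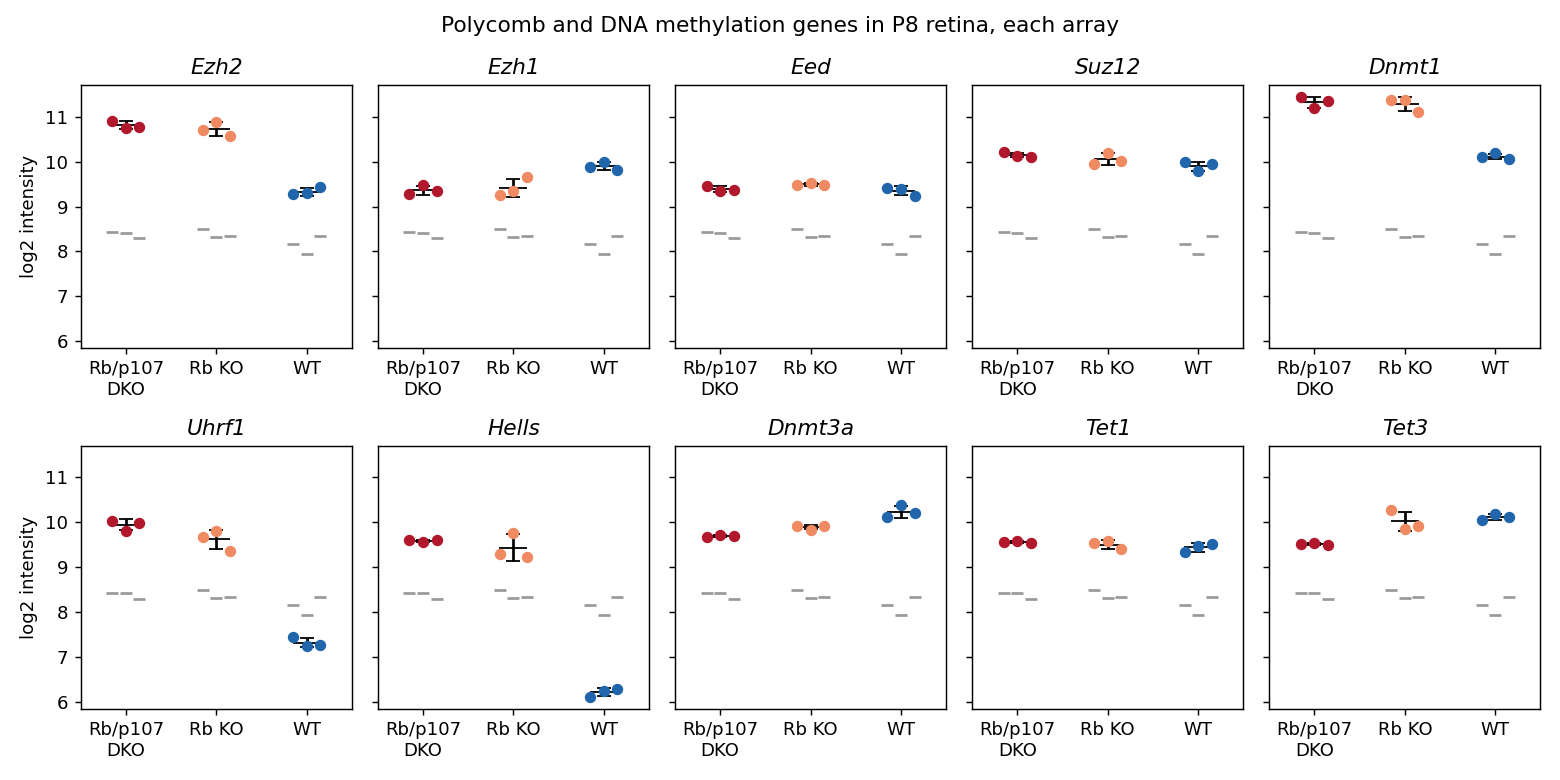
Log2 intensity (vertical axis) of the 10 members in DKO, Rb KO and WT arrays: points are arrays, black bars the mean and SD of 3 arrays, and short grey lines the background percentile of each array. Hells and Uhrf1 lie below the grey lines in WT, at 6.12 to 6.3 and 7.25 to 7.44, and all other points lie above them; levels of different genes come from different probes and are not comparable.

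Ezh2 rose in both mutants while Ezh1 fell. Ezh2 read 10.91, 10.75 and 10.77 in DKO, 10.71, 10.87 and 10.57 in Rb KO, and 9.27, 9.29 and 9.43 in WT. Each mutant array stood above every WT array by more than 1, and the 2 mutants overlapped. The log2 fold change was 1.48 in DKO (SE 0.092, 2.79-fold, adjusted p = 1.12e-06) and 1.39 in Rb KO (SE 0.092, 2.61-fold, adjusted p = 2.64e-06). DKO minus Rb KO was 0.10 (95% confidence interval -0.11 to 0.30).

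Ezh1, the subunit typical of cells that no longer divide, read 9.27, 9.47 and 9.35 in DKO, 9.26, 9.35 and 9.65 in Rb KO, and 9.89, 9.99 and 9.82 in WT. The WT arrays were the 3 highest of the 9, and the mutants overlapped. It fell by 0.53 on the log2 scale in DKO (SE 0.106, adjusted p = 0.00322) and by 0.48 in Rb KO (SE 0.106, adjusted p = 0.00713), to 0.69 of the WT level in DKO and 0.716 in Rb KO. Both calls ended when the fit took as a covariate how well each array told its positive controls from its negative ones (log2 fold changes of -0.43 in DKO and -0.39 in Rb KO, adjusted p = 0.0562 and 0.0632). This control separation, as an area under the curve, was 0.927 to 0.936 in DKO, 0.928 to 0.935 in Rb KO and 0.932 to 0.954 in WT, and its part in the falls was not tested otherwise.

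The core subunits Eed and Suz12 did not pass in either mutant. Eed read 9.45, 9.34 and 9.37 in DKO, 9.47, 9.53 and 9.48 in Rb KO, and 9.41, 9.4 and 9.24 in WT. The Rb KO arrays were the 3 highest, by a margin smaller than the spread within WT. The log2 fold change was 0.04 in DKO (95% confidence interval -0.13 to 0.20, adjusted p = 0.743) and 0.14 in Rb KO (-0.02 to 0.31, adjusted p = 0.2). Suz12 read 10.21, 10.12 and 10.11 in DKO, 9.94, 10.19 and 10.02 in Rb KO, and 9.98, 9.79 and 9.94 in WT. Its DKO arrays lay above all WT arrays, at a difference of 0.25 that narrowly missed the threshold (95% confidence interval 0.05 to 0.44, adjusted p = 0.0543), and the Rb KO arrays overlapped both other groups at 0.15 above WT (-0.04 to 0.34, adjusted p = 0.252). The Suz12 difference in DKO passed under 5 of the 17 alternatives: renewed quantile normalization (0.28, adjusted p = 0.0266), only genes above background in at least 3 arrays (adjusted p = 0.0273), trend and robust estimation (0.0432), and without Rb KO replicate 1 (0.0456) or 2 (0.0433). The intervals reach at most 0.44, below the lower limits of 1.28 in DKO and 1.18 in Rb KO for Ezh2 in the same arrays, although the differences between genes were not tested.

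Dnmt1 rose in both mutants. Dnmt1, the maintenance methyltransferase, read 11.43, 11.2 and 11.34 in DKO, 11.37, 11.38 and 11.1 in Rb KO, and 10.11, 10.18 and 10.05 in WT. All 6 mutant arrays were above all WT arrays, and the mutants overlapped. The log2 fold change was 1.21 in DKO (SE 0.096, 2.31-fold, adjusted p = 7.38e-06) and 1.17 in Rb KO (SE 0.096, 2.25-fold, adjusted p = 1.38e-05). DKO minus Rb KO was 0.04 (95% confidence interval -0.17 to 0.25).

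Uhrf1, whose product guides DNMT1 to hemimethylated CpG, was not above background in WT. It read 10.04, 9.81 and 9.99 in DKO, 9.68, 9.8 and 9.37 in Rb KO, and 7.44, 7.25 and 7.27 in WT. Every DKO array exceeded every Rb KO array, by as little as the gap between 9.81 and 9.8. Set against the background percentile in WT, Uhrf1 was at least 3.48-fold higher in DKO and at least 2.77-fold higher in Rb KO, bounds taken from group means that leave out the spread between arrays. The fitted differences, which rest on WT background readings and are no measured size, were 2.63 in DKO (SE 0.114, adjusted p = 8.02e-08) and 2.30 in Rb KO (SE 0.114, adjusted p = 2.89e-07). DKO minus Rb KO was 0.33 (95% confidence interval 0.08 to 0.58), which did not pass over all genes (adjusted p = 0.202).

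Hells, a helicase of the SNF2 family, went the same way. It read 9.6, 9.57 and 9.61 in DKO, 9.29, 9.77 and 9.23 in Rb KO, and 6.12, 6.25 and 6.3 in WT, where no array was above background. The DKO arrays lay within the range of the Rb KO arrays. Hells was at least 2.72-fold higher in DKO and at least 2.43-fold higher in Rb KO than the background percentile in WT, and the fitted log2 differences were 3.37 in DKO (SE 0.126, adjusted p = 3.92e-08) and 3.21 in Rb KO (SE 0.126, adjusted p = 6.88e-08). DKO minus Rb KO was 0.16 (95% confidence interval -0.12 to 0.44).

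Dnmt3a, the de novo methyltransferase, fell in both mutants. It read 9.68, 9.71 and 9.7 in DKO, 9.92, 9.84 and 9.92 in Rb KO, and 10.11, 10.38 and 10.21 in WT. The 3 groups did not overlap, with DKO lowest and WT highest. The fall was 0.54 on the log2 scale in DKO (log2 fold change -0.54, SE 0.080, adjusted p = 5.58e-04) and 0.34 in Rb KO (-0.34, SE 0.080, adjusted p = 0.0104). The step between the mutants, -0.20 (95% confidence interval -0.37 to -0.02), did not pass over all genes (adjusted p = 0.299). The Rb KO call ended with control separation as a covariate (-0.29, adjusted p = 0.0688), whereas the DKO call held under each alternative tried (adjusted p = 1.5e-04 to 0.0123).

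Tet3 differed between the mutants. Tet3, the methylcytosine oxidase best known from the zygote and from neurons, read 9.51, 9.55 and 9.5 in DKO, 10.27, 9.86 and 9.92 in Rb KO, and 10.06, 10.19 and 10.11 in WT. The 3 DKO arrays were the lowest of all 9, and Rb KO spread across and beyond the WT range. Tet3 fell by 0.60 in DKO against WT (SE 0.102, 0.66 of the WT level, adjusted p = 0.00127), and its difference in Rb KO was -0.10 (95% confidence interval -0.32 to 0.13, adjusted p = 0.543). DKO minus Rb KO was -0.50 (SE 0.102, adjusted p = 0.0295). That call is fragile: it ended without Rb KO replicate 3 (adjusted p = 0.0598), without DKO replicate 1, 2 or 3 (adjusted p = 0.108, 0.0679 and 0.126) and with the replicate number as a block (adjusted p = 0.0525), at log2 fold changes of -0.55, -0.50, -0.51, -0.49 and -0.50.

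Tet1, the related oxidase, read 9.57, 9.58 and 9.53 in DKO, 9.54, 9.58 and 9.4 in Rb KO, and 9.33, 9.47 and 9.52 in WT. The groups lay close together, and Rb KO overlapped both others. The DKO arrays lay above all WT arrays, by as little as the gap between 9.53 and 9.52. The difference from WT was 0.12 in DKO (95% confidence interval -0.05 to 0.30, adjusted p = 0.284) and 0.07 in Rb KO (-0.11 to 0.24, adjusted p = 0.611).

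**Figure D3:**
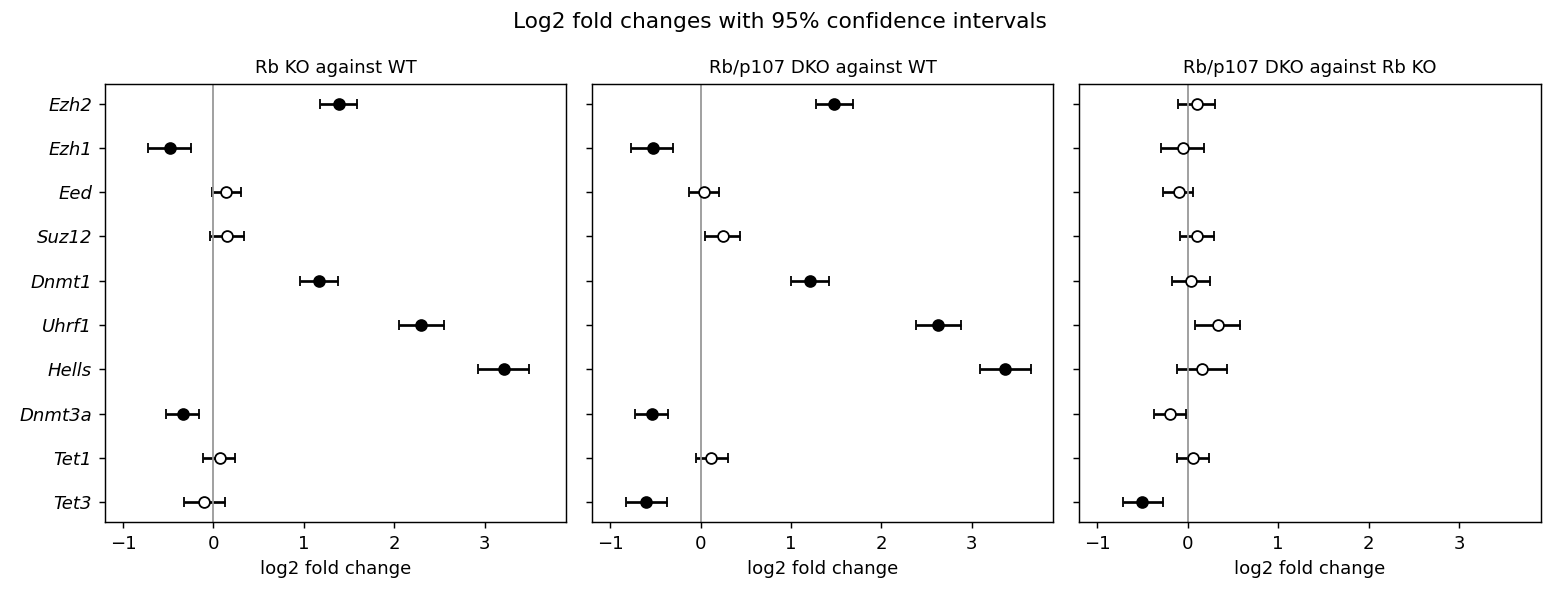
Log2 fold change (horizontal axis) of each member in Rb KO against WT, DKO against WT and DKO against Rb KO, with 95% confidence intervals from the limma fit; filled points passed an adjusted p of 0.05. Hells (3.37 and 3.21) and Uhrf1 (2.63 and 2.30) have the highest fitted values in DKO and Rb KO, which rest on WT readings below background and are not measured sizes (the Hells bounds are 1.44 and 1.28), Ezh1 and Dnmt3a lie left of 0 in both, and Tet3 is the filled point between the mutants.

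Markers of cell types were read from the same arrays, and some lists rose while others fell. All 10 tested markers of cycling cells rose in both mutants, with a mean level over the list of 10.05 to 10.28 in DKO arrays, 9.67 to 10.06 in Rb KO arrays and 6.82 to 7.04 in WT arrays, where 9 of the 10 were not above background on any array. Progenitor markers rose in 5 of 7 cases in each mutant. All 9 rod markers fell, with list means of 9.81 to 10.7 in DKO, 9.88 to 10.83 in Rb KO and 11.78 to 11.82 in WT. Cone markers fell in 7 of 7 cases in DKO and 6 of 7 in Rb KO, bipolar cell markers in 6 and 7 of 8 (1 rose in Rb KO), ganglion cell markers in 7 of 7 in each, pigment epithelium markers in 6 of 7 in each, and endothelial and pericyte markers in 5 and 4 of 6. Microglia markers rose in 4 of 7 cases in DKO and 5 of 7 in Rb KO, Muller glia markers gave 1 rise and 3 falls of 6 in each, amacrine markers 1 rise and 1 fall of 3, and horizontal cell markers 1 rise of 3. Some of these calls came from markers not above background on any array: 1 of the 10 for cycling cells, 2 of the 6 for pigment epithelium, 1 of the 7 for ganglion cells and 1 of the 2 for amacrine cells in each mutant, 2 of the 4 for microglia in DKO and 3 of the 5 in Rb KO, and 1 each for progenitors and cones in DKO. Lens markers rose in 4 of 6 cases in DKO, with list means of 7.72 to 9.8 in DKO, 6.97 to 7.37 in Rb KO and 6.82 to 7.24 in WT. Their median log2 fold change in DKO against Rb KO was 1.61, with 0 of the 6 called. The source of the lens readings, and of their spread among DKO arrays, was not tested. In whole retina, a different share of cells of a type and a different amount of RNA per cell cannot be told apart, and the part of these markers in the members' differences was not tested.

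The rest of the machinery was read from 8 lists of related genes, some shared between lists, which gave 72 tested genes beyond the 10 members. Of the 108 genes listed, 26 were not analysed here, among them the PRC1 core genes Rnf2 and Bmi1 and the demethylation genes Tet2 and Tdg. Of all genes tested only 16, 20 and 10 lay on chromosomes 1, 2 and 3, where 15 of those 26 lie, so counts over all genes and over the lists largely leave these chromosomes out. In DKO against WT 34 of the 72 rose and 7 fell (56.9% called), and in Rb KO against WT 35 rose and 4 fell (54.2%). Their medians on the log2 scale were 0.20 in DKO and 0.25 in Rb KO. Of all genes 29.4% were called in DKO and 24.4% in Rb KO. Of the 72, 56 were above background in at least 3 arrays, and 55.4% of these were called in DKO and 57.1% in Rb KO, beside 49.1% and 42.8% of all genes that bright. A gene can meet that filter through the group where it is high, so these shares are not independent of the calls. Between DKO and Rb KO 2 of the 72 (2.78%) were called, close to the 2.54% of all genes. Of the 56 above background in at least 3 arrays 1.79% were called, beside 4.68% of all genes that bright.

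**Figure D4:**
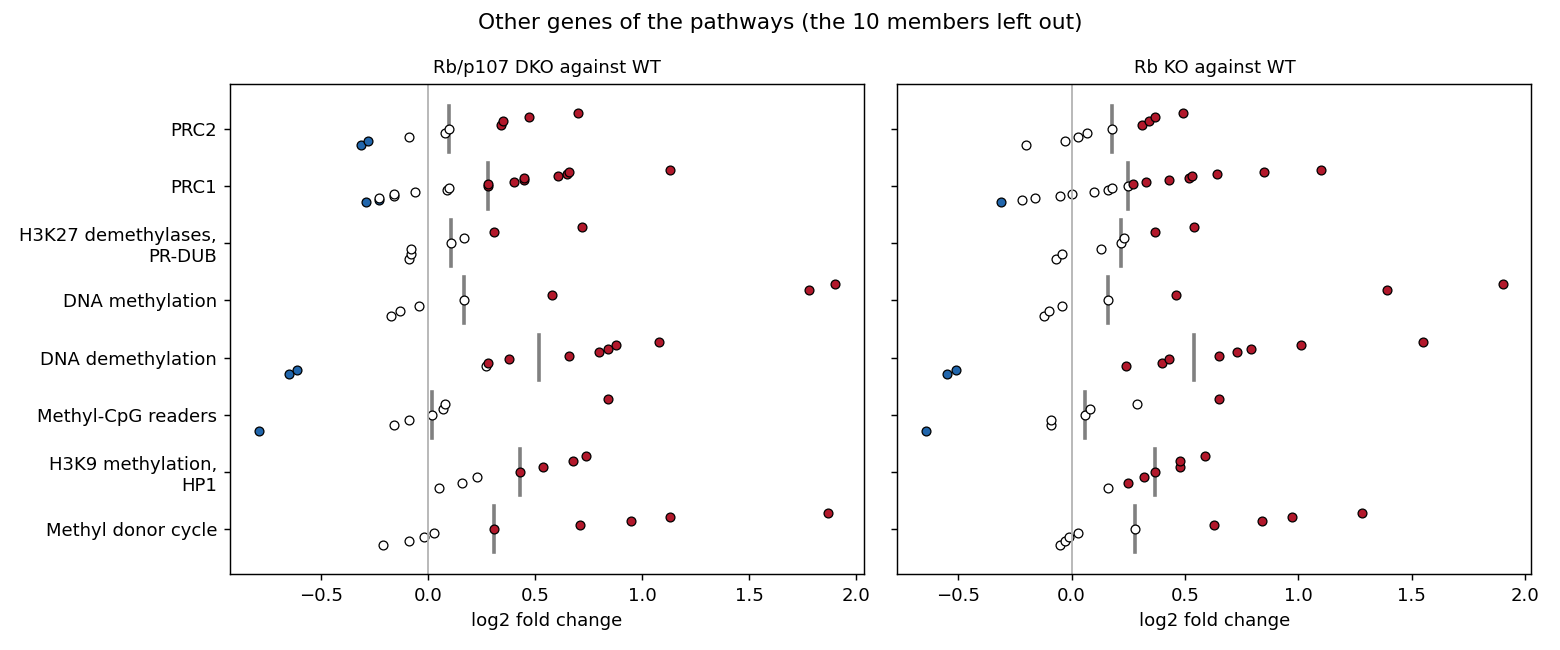
Log2 fold change (horizontal axis) of the other pathway genes, by list, in DKO against WT and Rb KO against WT: red points rose, blue points fell and white points did not pass; grey bars are list medians. The DNA demethylation list lies mostly right of 0 (medians 0.52 and 0.54), and methyl-CpG readers lie around 0 (medians 0.02 and 0.06).

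Of 9 other PRC2 genes, 4 rose and 2 fell in DKO, and 4 rose in Rb KO. Epop, called higher in both mutants, was not above background on any array. Mtf2, a Polycomb-like protein that brings PRC2 to CpG-rich DNA, read 9.69, 9.65 and 9.56 in DKO, 9.25, 9.64 and 9.38 in Rb KO, and 8.91, 8.83 and 9.05 in WT. Its mutant arrays were all above the WT arrays, and it rose by 0.70 in DKO (SE 0.103, adjusted p = 5.13e-04) and 0.49 in Rb KO (SE 0.103, adjusted p = 0.00569). The histone-binding subunits Rbbp4 (0.47 in DKO and 0.34 in Rb KO) and Rbbp7 (0.35 in DKO and 0.31 in Rb KO) also rose. Rbbp7 had no call in Rb KO when its replicate 2 was left out (adjusted p = 0.0649).

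Jarid2, an accessory subunit that modulates the activity of PRC2, was the PRC2 gene that differed between the mutants. It read 9.52, 9.55 and 9.54 in DKO, 10.02, 9.93 and 10.12 in Rb KO, and 9.76, 9.87 and 9.9 in WT. The 3 groups did not overlap, with DKO lowest and Rb KO highest. It fell by 0.31 in DKO against WT (SE 0.075, adjusted p = 0.00977) and by 0.49 in DKO against Rb KO (SE 0.075, adjusted p = 0.00647), while the difference of Rb KO from WT was 0.18 (adjusted p = 0.105, and 0.0415 at 0.23 with renewed quantile normalization). Phf1, another Polycomb-like gene, was called lower in DKO (-0.28, adjusted p = 0.0489) from readings not above background in DKO, and that call ended under 9 of the 16 alternatives that gave a value.

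Of 17 genes of PRC1, the complex that ubiquitinates histone H2A and reads the PRC2 mark, 9 rose and 2 fell in DKO and 8 rose and 1 fell in Rb KO. Only 8 of these calls in DKO and 7 in Rb KO had an array above background. Kdm2b and Pcgf5, called higher in both mutants, and Pcgf1, called lower in DKO, were not above background on any array. Phc1, a polyhomeotic subunit, read 9.78, 9.81 and 9.79 in DKO, 10.21, 9.86 and 9.88 in Rb KO, and 9.03, 9.19 and 9.19 in WT. It rose by 0.66 in DKO (SE 0.099, adjusted p = 5.86e-04) and 0.85 in Rb KO (SE 0.099, adjusted p = 1.55e-04). Cbx2, a chromodomain reader of methylated H3K27, rose by 0.65 in DKO and 0.64 in Rb KO, and Pcgf3, of a variant PRC1, by 0.40 in DKO and 0.52 in Rb KO. Scml2 was called higher in both (1.13 in DKO and 1.10 in Rb KO) but was above background on only 1 array, in Rb KO, so its size was not measured. Yaf2, a variant PRC1 subunit, fell by 0.29 in DKO and 0.31 in Rb KO, calls that ended under 5 alternatives in each comparison, among them control separation (-0.17 in DKO and -0.21 in Rb KO, adjusted p = 0.266 and 0.148). Among 7 H3K27 demethylase and deubiquitinase complex genes, 2 rose in each mutant. Kdm6b, an H3K27 demethylase, stood at 0.17 in DKO (adjusted p = 0.114) and rose by 0.37 in Rb KO (adjusted p = 0.00522). Foxk2, a forkhead partner of the deubiquitinase complex, rose by 0.31 in DKO (adjusted p = 0.0194), which no longer passed when DKO replicate 1 or 3, or WT replicate 1 or 3, was omitted (adjusted p = 0.0612 to 0.0673). Asxl3, a subunit of that complex, rose by 0.72 in DKO and 0.54 in Rb KO (adjusted p = 3.61e-04 and 0.00269). Only 1 WT array and 2 Rb KO arrays were above background for Asxl3, so these sizes rest partly on background readings.

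Of 7 other genes of DNA methylation, 3 rose in each mutant. Lig1, the ligase that joins Okazaki fragments, read 9.67, 9.42 and 9.46 in DKO, 9.61, 9.71 and 9.21 in Rb KO, and 7.57, 7.75 and 7.52 in WT. With WT not above background, it was at least 2.58-fold higher in DKO and at least 2.57-fold higher in Rb KO. Cdca7l, a relative of the HELLS partner gene Cdca7, was likewise at least 1.95-fold higher in DKO and at least 1.49-fold higher in Rb KO. Uhrf2, the paralogue of Uhrf1, read 9.57, 9.41 and 9.42 in DKO, 9.41, 9.4 and 9.23 in Rb KO, and 8.85, 8.92 and 8.89 in WT, and rose by 0.58 in DKO and 0.46 in Rb KO (adjusted p = 3.24e-04 and 0.00179). Dnmt3b and Cdca7 were not analysed here.

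Of 10 other genes of DNA demethylation, 7 rose and 2 fell in DKO, and 8 rose and 2 fell in Rb KO. Smug1, called lower in both mutants, was not above background on any array. The stress genes of the Gadd45 family moved in different directions. Gadd45g read 9.48, 9.01 and 9.15 in DKO, 9.84, 9.66 and 9.55 in Rb KO, and 8.14, 8.29 and 7.99 in WT, with 1 WT array above background. It rose by 1.08 in DKO and 1.55 in Rb KO (adjusted p = 1.41e-04 and 1.54e-05), sizes that rest partly on background readings. Gadd45b, not above background in WT, was at least 1.3-fold higher in DKO and at least 1.66-fold higher in Rb KO. Only 2 DKO arrays were above background for Gadd45b, so its DKO bound is loose. Gadd45a read 8.59, 8.59 and 8.63 in DKO, 8.76, 8.71 and 8.64 in Rb KO, and 9.34, 9.33 and 8.98 in WT, and fell by 0.61 in DKO and 0.51 in Rb KO (adjusted p = 8.46e-04 and 0.00315). Idh2, a source of the 2-oxoglutarate that TET enzymes consume, rose by 0.88 in DKO and 0.79 in Rb KO (adjusted p = 6.56e-05 and 1.9e-04). Mbd4, a glycosylase for mismatched thymine at CpG, rose by 0.84 in DKO and 0.65 in Rb KO (adjusted p = 3.96e-05 and 2.94e-04). Only 1 WT array and 2 Rb KO arrays were above background for Mbd4, so these sizes rest partly on background readings. Mbd4 was also the 1 rise among 7 methyl-CpG readers in each mutant, and Zbtb4, a zinc finger reader of methylated CpG, was the 1 fall, by 0.79 in DKO and 0.64 in Rb KO (adjusted p = 5.42e-04 and 0.00262).

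Heterochromatin and methyl donor genes rose in part. Of 7 genes of H3K9 methylation and HP1, 4 rose in DKO and 6 in Rb KO, with Trim28, the corepressor of zinc finger proteins, up by 0.68 in DKO and 0.59 in Rb KO (adjusted p = 5.4e-04 and 0.00172) and Cbx5, which encodes an HP1 protein, up by 0.74 in DKO and 0.48 in Rb KO (adjusted p = 1.37e-04 and 0.00263). Its relative Cbx1 rose by 0.54 in DKO and 0.48 in Rb KO (adjusted p = 7.1e-04 and 0.00203). Of 9 methyl donor genes, 5 rose in DKO and 4 in Rb KO. Shmt2, the mitochondrial serine hydroxymethyltransferase, read 10.5, 10.37 and 10.43 in DKO, 10.2, 10.21 and 10.01 in Rb KO, and 9.28, 9.48 and 9.16 in WT. It rose by 1.13 in DKO and 0.84 in Rb KO (adjusted p = 1.09e-05 and 1.26e-04). Mthfd2, a mitochondrial folate enzyme, was above background in only 1 array of each mutant, and its fitted differences were 0.95 in DKO and 0.97 in Rb KO. Shmt1, the cytosolic relative of Shmt2, read 8.69, 8.38 and 8.46 in DKO, 7.9, 8.12 and 7.76 in Rb KO, and 6.75, 6.52 and 6.67 in WT, and was above background in 2 DKO arrays only. Set against the background percentile, its DKO mean was at least 1.28-fold higher than in WT and at least 1.09-fold higher than in Rb KO. That mean includes a DKO array not above background, so these bounds are loose. The fitted log2 difference of DKO from Rb KO was 0.58 (adjusted p = 0.0245), which rests on background readings. The difference between the mutants no longer passed when DKO replicate 1 or 3, or Rb KO replicate 1 or 3, was omitted (adjusted p = 0.0786 to 0.0974).

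For each member, the genes most like it in pattern were ranked by Pearson correlation over the 9 arrays among the 6330 genes above background in at least 3 arrays that remained once predicted genes, small RNAs and olfactory receptors were set aside. These correlations largely follow the 3 groups, share the same arrays, and are given as a description. For Ezh2 they were Cdc6, Brip1 and Pole (0.997 each), and for Dnmt1 Cdk4, Lig1 and Fbxo5 (0.998 each). For Uhrf1 they were Chaf1b, Ticrr and Ndc80 (0.998 each), and for Hells Atad2 (0.999), Kif15 and Esco2 (0.998 each). For Ezh1 they were Zyg11b (0.992), Tmem196 and Mmd (0.99 each), for Dnmt3a Tecpr2 (0.993), Bicd2 (0.988) and Stard10 (0.983), and for Tet3 Dync1h1 (0.983), Iqsec1 (0.98) and Fam222a (0.972). The closest were looser for Suz12 (Eny2 at 0.97, Hsf2 at 0.967 and Taf9-ps at 0.965), Tet1 (Cacna1d at 0.947, Myo5a at 0.946 and Trpm3 at 0.943) and Eed (Tmtc4 at 0.922, Acat1 at 0.919 and Cdc16 at 0.916).

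Among the members themselves, Ezh2, Dnmt1, Uhrf1 and Hells correlated with each other at 0.99 to 1 over the 9 arrays, and Ezh1 with each of them at -0.94 to -0.91. Dnmt3a correlated with the same 4 genes at -0.94 to -0.89, with Suz12 at -0.89, with Ezh1 at 0.87 and with Tet3 at 0.82. Suz12 correlated with the 4 rising genes at 0.73 to 0.78, Eed at 0.49 to 0.56 and Tet1 at 0.58 to 0.63.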

How the data were processed

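Retinal RNA of 9 samples at P8 was measured on 1 array each. The deposited values are log2 intensities that the authors made by RMA, per the submitters' processing notes; software version and annotation build are not given in the sources used here. Of 59649 rows, 24646 probe sets listed 1 gene symbol, 1795 several, and 26476 transcript clusters none. Symbols were updated through a RefSeq table (GRCm38.p6), which held 24200 of the 24202 genes. Where a gene had several probe sets, the brightest on average was used. Groups were compared with limma 3.58.1 in R 4.3.3, fitted to group means of all 9 arrays (6 residual and 4.7 prior degrees of freedom), with Benjamini-Hochberg adjustment over all genes; a difference is the group named first minus the other. The fit was tested on simulated data. Figures used matplotlib 3.10.9. Precision is limited by 3 arrays per group. The p-values set each difference against the spread between these arrays, which limma moderates with the spread of all genes.

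The members, gene lists and marker lists, the rules for naming genes and the alternatives were chosen with earlier results of these data known. From each pathway list up to 3 called genes per direction and comparison against WT with the lowest p and at least 1 array above background were named, and the 3 genes most like each member, leaving out predicted genes. Alternatives covered probe set choice, scaling, a filter on dim genes, the samples and spread of the fit, a block, control separation, and leaving out each array.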

Additional observations from a re-analysis of the deposited data

How the results depend on the processing

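Each member's difference was recomputed under 17 alternatives. The members called stayed at 7 to 8 in DKO against WT and 6 in Rb KO against WT when 1 array was left out, and were 0 to 1 between the mutants, where limma gave 1 to 4 members an unadjusted p under 0.05 in these fits. With control separation as a covariate 6 members were called in DKO against WT and 4 in Rb KO against WT. In Rb KO against WT this covariate also lowered the number of calls over all genes, so the loss of calls there was not limited to the members. Genes called without 1 array ranged from 4906 to 7860 in DKO against WT, 4049 to 6764 in Rb KO against WT and 251 to 856 between the mutants, against 614 with all arrays; the low counts between the mutants came without DKO replicate 1 (269) or 3 (251) and Rb KO replicate 1 (301) or 3 (298). Restricting the test to the 7838 genes above background in at least 3 arrays left 4328 calls in DKO against WT, a smaller set by construction. Directions turned near 0 when an array was left out: Eed in DKO against WT ranged from -0.02 (without WT replicate 3) to 0.07, and between the mutants Ezh1 ranged from -0.13 to 0.06 (without Rb KO replicate 3) and Dnmt1 from -0.05 (without Rb KO replicate 3) to 0.1, with -0.02 without DKO replicate 1. Rb1 turned to 0.74 in DKO and 0.68 in Rb KO with the mean of its probe sets. The cause of these changes was not tested.

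Arrays with the same replicate number did not all deviate together (correlations of deviations from group means -0.163 to 0.146; replicate 1 was weakly positive in each comparison, at 0.083 to 0.146), and a shared batch or day was not tested further. With the replicate block limma called 0 members between the mutants (3 at an unadjusted p under 0.05), Tet3 having an adjusted p of 0.0525. Readings below background limit Hells and Uhrf1 in WT to bounds.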
